A study of Homo sapiens with 6 samples.

Results

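The cyclin-dependent kinase inhibitor genes of the CIP/KIP family (CDKN1A, CDKN1B and CDKN1C) and 3 of the INK4 family (CDKN2A, CDKN2B and CDKN2D) were examined together with CDKN3, 7 genes of the 22375 measured. The INK4 gene CDKN2C was not among those examined. The 7 genes were chosen by name, but with earlier results of these data known. Each was represented on the array by 1 transcript cluster, a group of probes for the transcripts of a locus, that names no other gene. RNA came from PC3-ML cells, a metastatic subline of the PC-3 human prostate cancer line, which lacks functional p53. In the treated group, 3 samples had been kept for 24 h with PD 0332991 at 500 nM in DMSO. The other 3 samples had received the DMSO vehicle. PD 0332991 is palbociclib, an inhibitor of the kinases CDK4 and CDK6. All 6 samples were of the parental cells, grown in DMEM with serum, and both groups were thus exposed to DMSO. Nothing in the labels ties the samples to separate cultures, and p-values therefore reflect how much these particular samples vary, possibly for technical reasons alone.

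INK4 proteins bind CDK4 and CDK6 themselves and keep the D cyclins off, so they act on the same kinases as the drug. CIP/KIP proteins bind cyclin and kinase together and are best known as inhibitors of cyclin E and cyclin A complexes with CDK2. They also sit on cyclin D complexes with CDK4 and CDK6 without always blocking them. Both families hold back the phosphorylation of the retinoblastoma protein and with it the entry into S phase. CDKN3 carries a related name but belongs to neither family: it encodes KAP, a phosphatase that removes the activating phosphate from CDK2 and CDK1.

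Of the 7 genes, CDKN3 fell with PD 0332991, to a level 3.13-fold lower than with DMSO, and none of the 6 kinase inhibitor genes passed the threshold. Log2 changes of those 6 lay between -0.15 and 0.24. The 3 CIP/KIP genes all had values below 0, CDKN2B had the highest positive value, and the 95% intervals of all 6 stayed within 1.33-fold in either direction. The threshold was an adjusted p under 0.05 in limma, a linear model with moderated spread, with Benjamini-Hochberg adjustment over all genes. By this rule 11.3% of all genes were called, 5.57% as higher and 5.74% as lower, beside 1 lower and 0 higher among the 7. At an unadjusted limma p under 0.05, 2 of the 6 kinase inhibitor genes passed (CDKN1C and CDKN2B), beside 24.0% of all genes. Without overlap between the groups were 3 of the 7 (CDKN1C, CDKN2B and CDKN3), beside 29.9% of all genes.

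The proximal promoters of CDKN3, the gene that fell, of CDKN2B, the inhibitor gene with the largest measured difference, and of CDKN1A, the CIP/KIP gene known as a p53 target, are shown for comparison. They come from RefSeq (GRCh38.p14), run from 250 bases before to 50 bases after the transcription start, and were found for 6 of the 7 genes. Capitals mark matches on either strand to 4 short motifs chosen with the results known. These are the cell cycle homology region, an element of promoters bound by the DREAM complex (TTTGAA or TTCGAA), the CCAAT box (CCAAT), E2F sites (TTCCCGC or TTGGCGC or TTCGCGC) and the GC box (GGGCGG). Neighbouring GC boxes may overlap.
CDKN3, chr14:54396757-54397056, strand +: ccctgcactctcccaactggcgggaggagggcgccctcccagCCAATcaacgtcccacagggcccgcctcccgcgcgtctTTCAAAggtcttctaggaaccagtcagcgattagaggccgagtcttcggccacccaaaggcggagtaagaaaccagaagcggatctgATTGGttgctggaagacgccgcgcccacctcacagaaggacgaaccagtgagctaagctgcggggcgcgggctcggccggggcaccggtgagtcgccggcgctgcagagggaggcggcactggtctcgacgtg
CDKN2B, chr9:22009256-22009555, strand -: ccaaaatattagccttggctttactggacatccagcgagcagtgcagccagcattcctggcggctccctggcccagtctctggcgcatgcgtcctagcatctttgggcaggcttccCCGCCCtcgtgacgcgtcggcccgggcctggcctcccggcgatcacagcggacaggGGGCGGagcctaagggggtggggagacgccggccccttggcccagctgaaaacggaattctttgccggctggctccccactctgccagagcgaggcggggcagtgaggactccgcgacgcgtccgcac
CDKN1A, chr6:36678464-36678763, strand +: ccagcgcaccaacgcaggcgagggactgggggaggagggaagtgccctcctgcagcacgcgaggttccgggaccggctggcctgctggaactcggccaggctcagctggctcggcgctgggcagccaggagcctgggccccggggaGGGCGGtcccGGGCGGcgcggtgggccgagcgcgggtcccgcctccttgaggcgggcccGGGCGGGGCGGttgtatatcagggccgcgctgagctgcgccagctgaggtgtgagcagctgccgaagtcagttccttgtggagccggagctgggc

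The CDKN3 window held 1 cell cycle homology match (TTTGAA on the minus strand, its first base 170 bases before the start), flanked by 2 CCAAT boxes, 208 and 83 bases before the start. It held no match to the E2F letters or the GC box. No cell cycle homology match was found in the 6 windows of the kinase inhibitor genes that had one, of which CDKN2A had 2, for its separate starts. Over all 35116 promoter windows of the same length, 16.4% held such a match, 34.6% held a CCAAT box, 11.0% an E2F match and 45% a GC box. The CDKN2B window held 2 GC boxes and that of CDKN1A held 4. CDKN1B (3 matches) and CDKN2D (1 match) were the inhibitor genes with CCAAT boxes. A match of letters is a description of the window and not a bound site.

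As a check of the samples, the proliferation gene MKI67 had a log2 signal of 7.80 ± 0.072 with PD 0332991 and of 12.28 ± 0.016 with DMSO (mean ± SD, n = 3). Array medians over all genes were between 5.33 and 5.37 (log2 signal). Arrays of 1 group correlated at 0.9977 to 0.9985 and arrays of different groups at 0.9938 to 0.9948 (Pearson's r over genes, which do not count as replicates). The epithelial markers KRT8, KRT18, KRT19, EPCAM and CDH1 had mean log2 signals from 6.57 to 12.64 with PD 0332991 and from 6.49 to 12.23 with DMSO. Of these 5, KRT19 rose by 0.41 on the log2 scale (adjusted p = 0.00612 by limma) and KRT8 by 0.31 (adjusted p = 0.0449). The KRT8 call was lost without DMSO replicate 1 or 3, without PD 0332991 replicate 1 or 2 and with the mean of a gene's clusters (adjusted p from 0.128 to 0.150). Their part in the results was not tested. The 10 leukocyte, fibroblast and endothelial markers measured lay between 3.81 and 4.57 with PD 0332991 and between 3.85 and 4.44 with DMSO, below the array medians, and none of the 10 passed the threshold. The 3 luminal prostate markers measured were KLK2, KLK3 and TMPRSS2. They averaged 3.51, 4.36 and 5.11 with PD 0332991 and 3.41, 4.38 and 5.08 with DMSO, in that order. In RNA of a whole culture, fewer cells of a kind and less RNA per cell cannot be told apart.

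**Figure D1:**
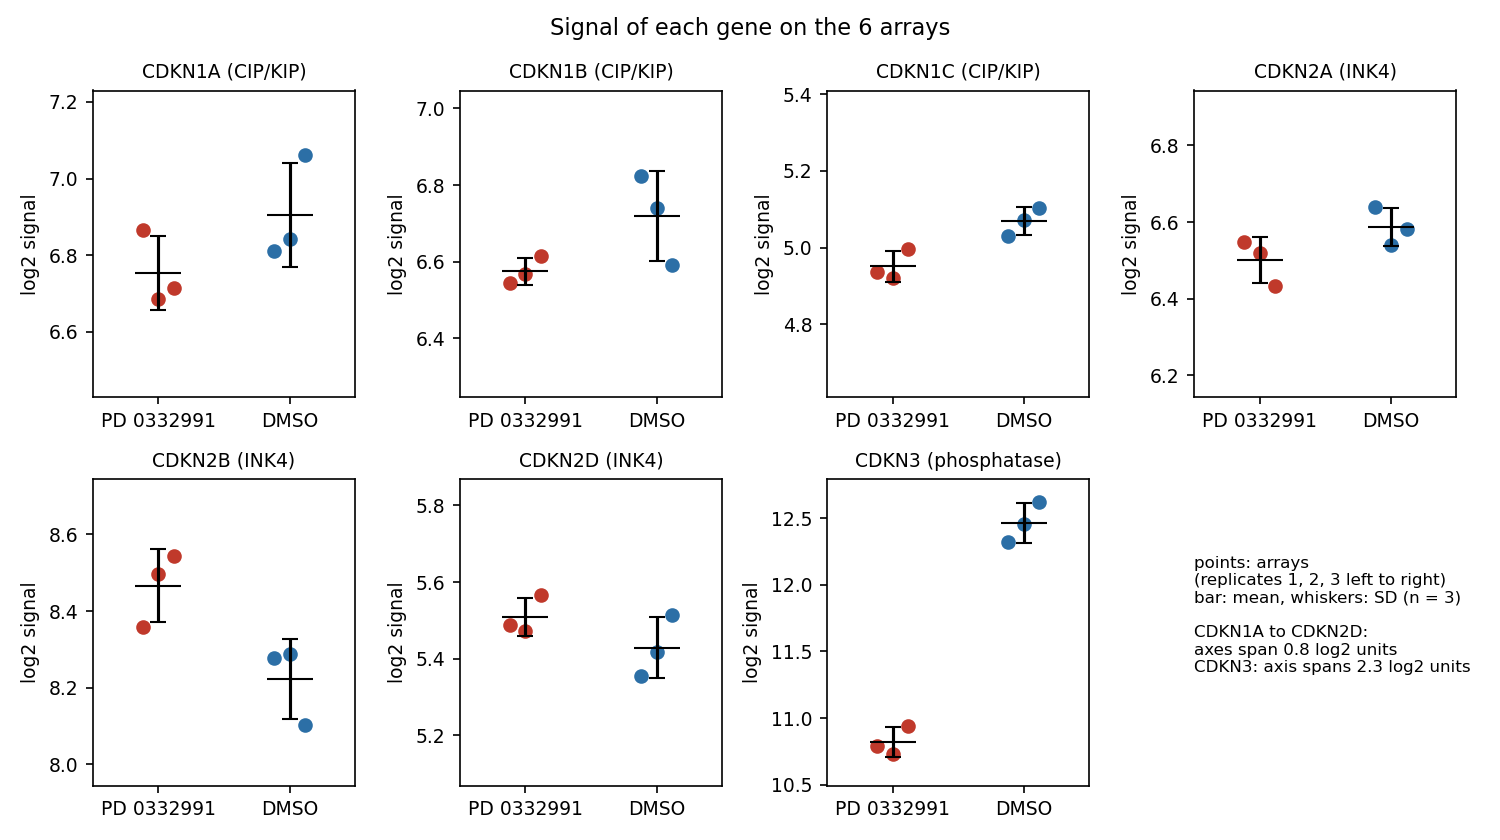
Log2 signal of the 7 genes on each of the 6 arrays, PD 0332991 left and DMSO right in each panel; points are arrays, the bar is the mean and the whiskers are the SD (n = 3). The groups lie far apart for CDKN3, with 10.73 to 10.94 with PD 0332991 and 12.32 to 12.62 with DMSO, whereas CDKN1A, CDKN1B, CDKN2A and CDKN2D overlap.

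Among the CIP/KIP genes, CDKN1A (transcript cluster TC06000532.hg.1, chromosome 6) encodes p21, the inhibitor that p53 induces after DNA damage. Its log2 signals were 6.86, 6.68 and 6.71 with PD 0332991 (replicates 1, 2 and 3), against 6.81, 6.84 and 7.06 with DMSO. The highest treated value lay above the lowest 2 vehicle values, so the groups overlapped. The log2 change was -0.15 ± 0.082 (SE; 95% interval -0.35 to 0.04, adjusted p = 0.339 by limma). The interval's lower end corresponds to a level 1.27-fold lower and its upper end to one 1.03-fold higher.

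CDKN1B (TC12000178.hg.1, chromosome 12) encodes p27, which rises in many resting cells and is marked for destruction by the SKP2 ubiquitin ligase. It had log2 signals of 6.54, 6.57 and 6.61 with PD 0332991, against 6.82, 6.74 and 6.59 with DMSO. The treated arrays were close together and DMSO replicate 3 lay among them, so that the groups overlapped through that array. The log2 change was -0.14 ± 0.066 (SE; 95% interval -0.30 to 0.01, adjusted p = 0.247 by limma).

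CDKN1C (TC11001284.hg.1, chromosome 11) encodes p57, an inhibitor expressed from the maternal copy of an imprinted region. Its log2 signals were 4.935, 4.920 and 4.997 with PD 0332991, against 5.031, 5.072 and 5.104 with DMSO. All 3 treated values were below all 3 vehicle values, by a gap smaller than the spread inside either group. With a log2 change of -0.12 ± 0.044 (SE; 95% interval -0.22 to -0.01), the adjusted p was 0.161 by limma. Its signal averaged 5.01 over all arrays, below the median of 5.35 over all genes, and was the single one of the 7 to do so.

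Changes of the 3 CIP/KIP genes could not be distinguished from each other. Differences were taken within each array and compared between the groups by exact permutation of the arrays, two-sided, over 6 pairs that share genes; with 3 against 3 this test cannot give a p below 0.1. The 95% intervals of the differences came from an ordinary linear model without moderation, not from the permutation. CDKN1A minus CDKN1B came to -0.01 (95% interval -0.46 to 0.44, exact permutation p = 0.9, adjusted p = 0.9). CDKN1A minus CDKN1C was -0.03 (95% interval -0.28 to 0.21) and CDKN1B minus CDKN1C was -0.03 (95% interval -0.27 to 0.22), with exact permutation p of 0.5 and 0.7 and adjusted p of 0.75 and 0.84. The intervals reach differences of 1.37-fold for the first pair and 1.21-fold for the others, so they do not show that the genes moved alike. All 3 of these differences changed sign with some array left out.

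Among the INK4 genes, CDKN2A (TC09000964.hg.1, chromosome 9) encodes p16 and, from another first exon and reading frame, the MDM2 inhibitor ARF. A single transcript cluster carried the gene's name, so p16 and ARF transcripts were not separated. Its log2 signals were 6.55, 6.52 and 6.43 with PD 0332991, against 6.64, 6.54 and 6.58 with DMSO. The groups overlapped narrowly, through the first treated array and DMSO replicate 2. The log2 change was -0.09 ± 0.051 (SE; 95% interval -0.21 to 0.03, adjusted p = 0.378 by limma).

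CDKN2B (TC09000965.hg.1), next to CDKN2A on chromosome 9, encodes p15, an inhibitor that TGF-beta induces in epithelial cells. It had log2 signals of 8.36, 8.50 and 8.54 with PD 0332991, against 8.28, 8.29 and 8.10 with DMSO. All treated values lay above all vehicle values. The log2 change of 0.24 ± 0.072 (SE; 95% interval 0.07 to 0.41), a level 1.18-fold higher, did not pass over all genes (adjusted p = 0.0833 by limma). It had an adjusted p of 0.0338 when genes with a signal at or below the median were left out, a range of 0.0338 to 0.202 over the 12 alternatives, and 0.0719 to 0.202 with 1 array left out.

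CDKN2D (TC19001170.hg.1, chromosome 19) encodes p19, an INK4 protein whose level varies over the cell cycle in dividing cells. Its log2 signals were 5.49, 5.47 and 5.57 with PD 0332991, against 5.35, 5.42 and 5.51 with DMSO. DMSO replicate 3 reached into the treated range. The log2 change was 0.08 ± 0.056 (SE; 95% interval -0.05 to 0.21, adjusted p = 0.461 by limma).

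Within the INK4 family, the measured values ran in different directions. CDKN2A minus CDKN2B changed by -0.33 on the log2 scale (95% interval -0.63 to -0.03), and all 3 treated differences were below all 3 vehicle differences (exact permutation p = 0.1, the smallest possible, adjusted p = 0.3 over 6 pairs). CDKN2A minus CDKN2D also showed no overlap, with -0.17 (95% interval -0.42 to 0.08, exact permutation p = 0.1, adjusted p = 0.3). CDKN2B minus CDKN2D was 0.16 (95% interval -0.15 to 0.48, exact permutation p = 0.2, adjusted p = 0.4), and 0.06 without DMSO replicate 3. CDKN2A minus CDKN2D was -0.10 without DMSO replicate 1 and -0.11 without PD 0332991 replicate 3. No pair passed the threshold, which 3 arrays a group cannot reach with this test. Set side by side, the median log2 change was -0.14 for the 3 CIP/KIP genes and 0.08 for the 3 INK4 genes, beside 0.02 for all genes.

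**Figure D2:**
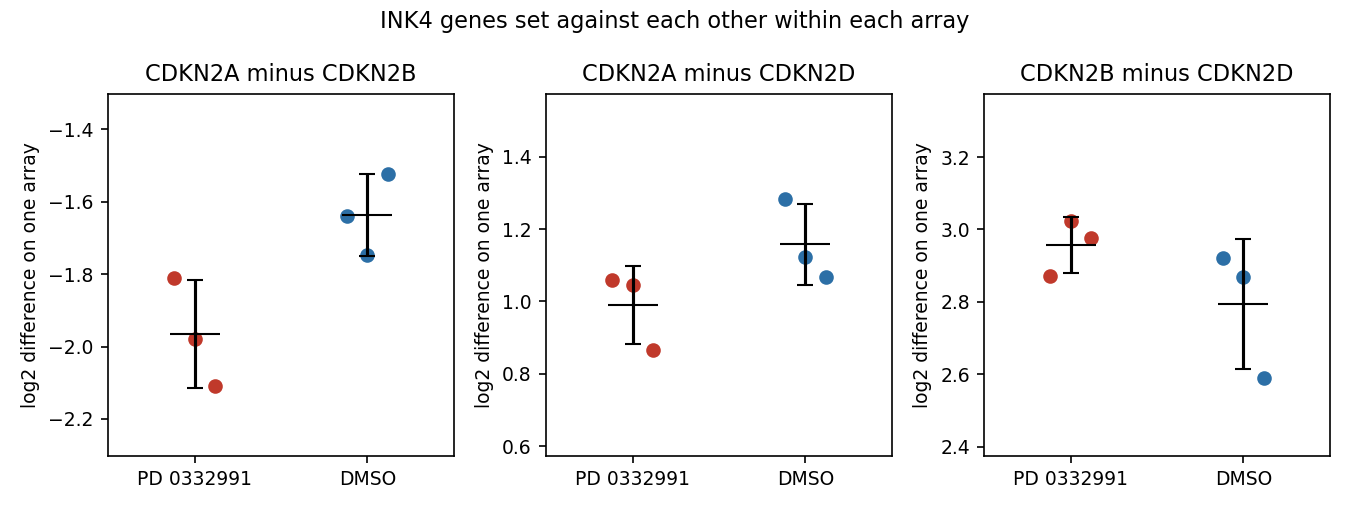
Difference in log2 signal between a pair of INK4 genes on the same array, PD 0332991 left and DMSO right; points are arrays, bars are means and whiskers SDs (n = 3). The height of a panel depends on the probes and has no meaning of its own, while the offset between the groups is the difference of the changes: -0.33 for CDKN2A minus CDKN2B, with no overlap.

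CDKN3 (TC14000316.hg.1, chromosome 14) had log2 signals of 10.79, 10.73 and 10.94 with PD 0332991, against 12.32, 12.46 and 12.62 with DMSO. Every treated array was lower than every vehicle array by more than the range of either group. The log2 change was -1.65 ± 0.090 (SE; 95% interval -1.86 to -1.43, adjusted p = 6.02e-05 by limma), and the interval's ends correspond to levels 3.63-fold and 2.70-fold lower. With any 1 array left out the log2 change stayed between -1.72 and -1.57.

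**Figure D3:**
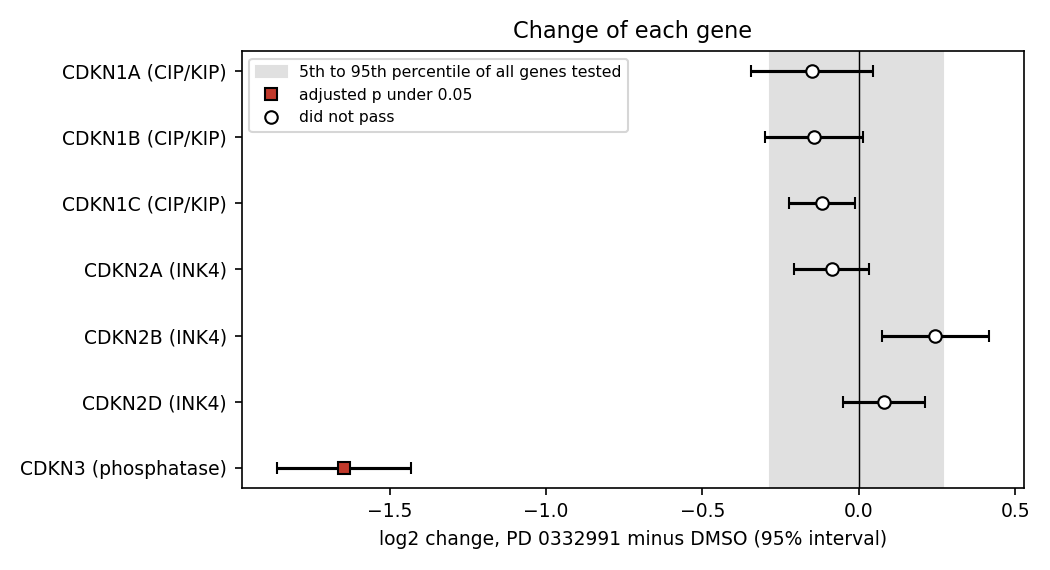
Log2 change with PD 0332991 relative to DMSO of the 7 genes, with 95% intervals from limma; the grey band spans the 5th to 95th percentile of all genes tested, -0.28 to 0.27. CDKN3 lies at -1.65, outside the band, and the other 6 lie inside it, with CDKN2B highest at 0.24.

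CDKN3 was set beside 18 genes of G2 and M phase. All 18 fell, beside 5.74% of all genes called lower. Their median log2 change was -2.14 (4.41-fold lower), against 0.02 over all genes. KIF20A, a mitotic kinesin, was at the far end with -4.00, and CDC25C, the phosphatase that activates CDK1, at the near end with -0.85. CDKN3 lay inside this range, with 13 of the 18 falling further and 5 less far. Promoter windows were found for 14 of the 18, and 10 of those 14 held a cell cycle homology match, as CDKN3 did, beside 19.5% of the 27305 genes with a window. Several of these genes are known for that element, so the share was not independent of how they were chosen.

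By Pearson correlation of log2 signals over the 6 arrays, the genes most like CDKN3 were DTL, a substrate adaptor of a ubiquitin ligase (r = 0.9995), the repressor E2F8 (r = 0.9994) and CNTLN, a centrosome gene (r = 0.9993). Their log2 changes were -1.48, -1.89 and -0.41, and with 6 arrays in 2 groups such a correlation largely restates the difference between the groups. For the other 6 genes, the 3 most similar had r between 0.985 and 0.999. Of these 18, 2 passed the threshold themselves, a share close to the 11.3% of all genes called in either direction. They were UBASH3B (-0.39), named for CDKN1C, and the interferon-induced gene IFIT1 (0.88), named for CDKN2B.

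The kinases and cyclins on which the inhibitors act were measured for 11 genes. PD 0332991 lowered 6 of them and raised 1, beside 5.74% of all genes called lower and 5.57% higher. The other 4 were not called, and the median log2 change was -0.64 (0.02 for all genes). CDK1 (-3.27), cyclin A2 (CCNA2, -3.43) and cyclin E2 (CCNE2, -3.00) had the smallest p among those that fell. CDK1, CCNA2 and cyclin B1 (CCNB1), which all fell, were also counted among the G2 and M phase genes, so these lists overlap. Of the drug's targets, CDK4 averaged 11.82 ± 0.125 with PD 0332991 and 12.46 ± 0.127 with DMSO (log2 signal, mean ± SD, n = 3), and CDK6 averaged 7.15 ± 0.029 with PD 0332991 and 7.08 ± 0.093 with DMSO. CDK2, the main target of the CIP/KIP proteins, fell 2.70-fold, while cyclin D1 (CCND1) rose 1.30-fold, a call lost without DMSO replicate 1 or DMSO replicate 3. The log2 changes of the 6 inhibitor genes, from -0.15 to 0.24, thus stood beside changes of -1.43 in CDK2 and -0.64 in CDK4.

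Genes of the ubiquitin pathways that remove CIP/KIP proteins were represented by 11 genes. Among these 3 fell, 1 rose and 7 were not called (median log2 change -0.02), beside 11.3% of all genes called in either direction. SKP2, the F-box protein that recognises p27, averaged 11.15 ± 0.089 with PD 0332991 and 12.09 ± 0.044 with DMSO (log2 signal, mean ± SD, n = 3), a level 1.93-fold lower (adjusted p = 0.000103 by limma). Its cofactor CKS1B fell 1.32-fold (adjusted p = 0.0190), and DTL, which directs p21 to a CUL4 ligase in S phase, fell 2.79-fold (adjusted p = 3.61e-05). The CKS1B call was lost without DMSO replicate 1 or without PD 0332991 replicate 2 or 3 (adjusted p from 0.0591 to 0.0672). RNF123, a subunit of another ligase for p27, rose 1.25-fold (adjusted p = 0.00851). These are transcript levels, and protein levels were not measured.

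Transcription factors known to act on the CIP/KIP genes were represented by 14 genes. None rose, 3 fell and 11 were not called, with a median log2 change of 0.01, beside 11.3% of all genes called in either direction. TFAP4, a repressor of CDKN1A, fell by 0.34 on the log2 scale, SP3, which binds GC boxes, by 0.34, and KLF6, an activator of CDKN1A, by 0.20. The count of 3 dropped to 0 without PD 0332991 replicate 1, and to 1 without DMSO replicate 1, without DMSO replicate 3 or without PD 0332991 replicate 2. It also dropped to 1 with quantile normalization. KLF6 lost its call with quantile normalization and with any array left out (adjusted p from 0.0536 to 0.0822), and SP3 with quantile normalization and without DMSO replicate 1 or 3 or PD 0332991 replicate 1 or 2 (0.0665 to 0.0861).

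Among 13 chromatin and transcription factors of the INK4 locus, 5 fell and 1 rose, while 7 were not called (median log2 change -0.15). Calls over all genes were 5.74% lower and 5.57% higher. EZH2, the Polycomb methyltransferase that helps to silence the locus, averaged 6.98 ± 0.058 with PD 0332991 and 8.61 ± 0.051 with DMSO (log2 signal, mean ± SD, n = 3), a level 3.09-fold lower (adjusted p = 4.96e-06 by limma). ETS2, an activator of CDKN2A, fell by 0.72 on the log2 scale, the T-box repressors TBX3 and TBX2 by 0.40 and 0.27, and the Polycomb subunit SUZ12 by 0.32. ID1, which opposes ETS activation of CDKN2A, rose by 0.81 (adjusted p = 0.00869). Leaving out DMSO replicate 1, DMSO replicate 2 or PD 0332991 replicate 3 gave a count of 3 in place of 5 lower. The call of SUZ12 was lost with 5 of the 6 arrays left out in turn (all except PD 0332991 replicate 1; adjusted p from 0.0556 to 0.0721), and that of TBX2 without DMSO replicate 1 or 2 and without PD 0332991 replicate 1 or 3 (0.0635 to 0.0765).

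**Figure D4:**
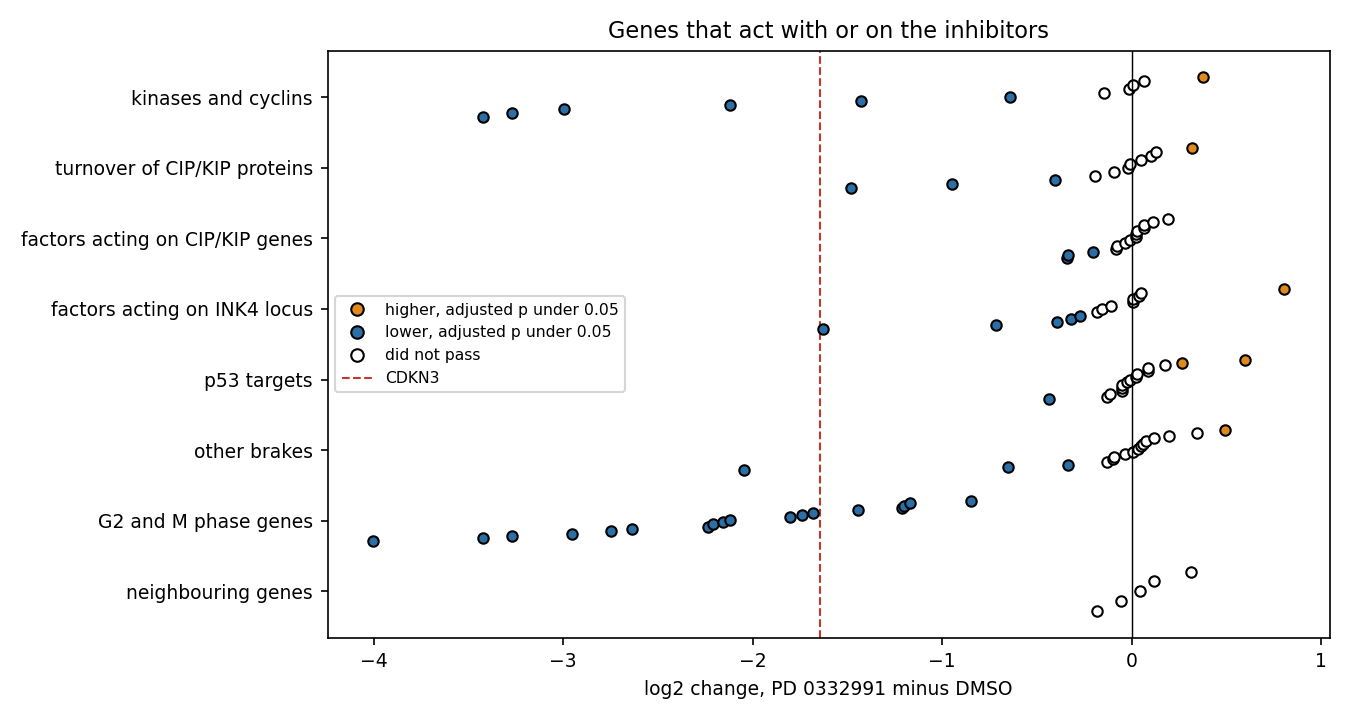
Log2 change with PD 0332991 relative to DMSO for genes that act with or on the inhibitors, 1 point per gene and 1 band per list; filled points passed the threshold. The dashed line marks CDKN3 at -1.65, which runs through the G2 and M phase genes, while most factors acting on CIP/KIP genes and most p53 targets gather around 0.

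Since PC-3 cells lack functional p53, CDKN1A was set beside other p53 target genes. Among 15 of these, 2 rose, 1 fell and 12 were not called, with a median log2 change of -0.01. The shares over all genes were 5.57% higher and 5.74% lower. The RNA-binding protein gene ZMAT3 rose 1.51-fold and the ribonucleotide reductase subunit gene RRM2B 1.20-fold, and the DNA damage sensor gene DDB2 fell 1.35-fold. The count of 2 higher became 1 without DMSO replicate 1, 2 or 3, without PD 0332991 replicate 1 or 3 and with array medians centred, in each case through RRM2B (adjusted p from 0.0603 to 0.0950).

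Other brakes on the cell cycle comprised 16 measured genes, of which 1 rose and 3 fell, with 12 not called (median log2 change 0.02). In either direction, 11.3% of all genes were called. WEE1, the kinase that holds CDK1 inactive, fell 4.13-fold, BTG3 fell 1.57-fold and BTG1 fell 1.26-fold. The BTG1 call was lost in 7 of the 12 alternatives, which were quantile normalization, centred array medians and leaving out any array except PD 0332991 replicate 3 (adjusted p from 0.0544 to 0.128). TOB1, an antiproliferative protein of the BTG family, rose 1.41-fold, and 2 genes rose without DMSO replicate 1 or without PD 0332991 replicate 2. Of 5 genes next to CDKN2A and CDKN2B or to CDKN1C, none passed the threshold, beside 11.3% of all genes. MTAP, beside CDKN2A, had a log2 change of -0.18 (adjusted p = 0.0608 by limma), and CDKN2B-AS1, the antisense transcript of the INK4 locus, one of -0.06 (adjusted p = 0.741).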

How the data were processed

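Total RNA of 6 samples, 3 per group, was measured on Affymetrix human transcriptome arrays. The values the authors deposited, 1 for each cluster on each array, were taken as log2 signals because they run from 2.04 to 19.93, although no label gives the log base. They were made with Affymetrix Expression Console, per the submitters' processing notes, with a normalization not given in the sources used here. The labels name both a NuGEN amplification system and an Affymetrix kit.

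Of 65535 clusters, 22685 carried 1 gene symbol, 1385 carried several and 41465 none in the annotation used. Entrez identifiers updated or matched the symbols of 20487. The cluster with the highest mean stood for a gene, which left 22375 genes, with no filter on level. Groups were compared on values as deposited with limma 3.58.1 in R 4.3.3, without a block, two-sided, with Benjamini-Hochberg adjustment over all genes, threshold 0.05, and intervals at 95% from the moderated spread. The limma step was tested on simulated data.

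The members and gene lists were chosen with earlier results of these data known. Named were the 7 members, 3 check genes (CDK4, CDK6 and MKI67), of each list all genes past the threshold where 5 or fewer were (otherwise the 3 with the smallest p in each direction), and the 3 genes most correlated with each member, of which not all are printed; other genes were named after their values were seen. Alternatives were a replicate block, quantile normalization, centred array medians, a filter on dim genes, the mean of a gene's clusters, another prior, and leaving out each array. The 3 arrays per group limit the precision.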

Additional observations from a re-analysis of the deposited data

How the results depend on the processing

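Over 83 recomputed member changes, 82 kept their direction and their side of the threshold and none reversed. The replicate block, the filter on dim genes and the other prior cannot alter a log2 change, only its adjusted p. The mean of a gene's clusters cannot either, as each member had 1 cluster. Direction was thus fixed in advance in these settings. The exception was CDKN2B, with an adjusted p of 0.0338 by limma for genes above the median level alone (log2 change 0.24). Fewer genes were tested in that setting, and CDKN1C was not. Leaving out 1 array gave log2 changes of -0.21 to -0.07 for CDKN1A, -0.21 to -0.09 for CDKN1B, -0.14 to -0.10 for CDKN1C, -0.11 to -0.05 for CDKN2A, 0.18 to 0.30 for CDKN2B, 0.04 to 0.12 for CDKN2D and -1.72 to -1.57 for CDKN3. All 54 recomputed differences between members of a family moved by less than the spread between replicates. Among these, the values with centred array medians or with the mean of a gene's clusters could not move at all. Those with 1 array left out could not move by as much as that spread, whatever the data. Only the values with quantile normalization could have moved further. With 1 array left out the differences ranged from -0.11 to 0.13 for CDKN1A minus CDKN1B, -0.10 to 0.03 for CDKN1A minus CDKN1C and -0.11 to 0.05 for CDKN1B minus CDKN1C. They ranged from -0.41 to -0.26 for CDKN2A minus CDKN2B, -0.21 to -0.10 for CDKN2A minus CDKN2D and 0.06 to 0.23 for CDKN2B minus CDKN2D.

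Over all genes, 2531 passed the threshold, 1247 higher and 1284 lower; with array medians centred 759 were higher and 1264 lower. Leaving out 1 array gave 1602 to 1857 genes, of which 716 to 815 were higher. The labels do not say whether equal replicate numbers mark a shared culture. Deviations of same-numbered arrays from their group means correlated at 0.02, -0.01 and 0.04 over genes. Such values cannot settle whether the samples were paired. With the replicate block, 1740 genes passed, 786 of them higher, and the CDKN3 change kept its call (adjusted p = 0.000285), while KLF6 (0.0698) and TBX2 (0.0513) lost theirs.

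Of 192 recomputed list counts, 165 stayed within 1.5 times. Factors acting on CIP/KIP genes had 1 member higher with quantile normalization, with genes above the median level and with the trend and robust prior, and 1 lower with quantile normalization; 0 to 2 were lower with 1 array left out. With 1 array left out, 3 to 4 factors of the INK4 locus were lower, 1 to 2 p53 targets higher, 1 to 2 other brakes higher and 0 to 1 kinases and cyclins higher. With array medians centred 1 p53 target was higher, and with genes above the median level 2 p53 targets were lower and 2 other brakes higher. Of the neighbouring genes, 1 was higher and 1 lower with genes above the median level, and 1 was lower with array medians centred and with the trend and robust prior. The causes were not tested.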
